A study of Homo sapiens with 36 samples.

Results

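The HOX genes of A549 and BEAS-2B (B2B) cells were examined in peak lists from chromatin immunoprecipitation followed by sequencing (ChIP-seq). The members were the GENCODE protein-coding genes whose symbol is HOX followed by A, B, C or D and a number, which gave 39 of 20033 protein-coding genes. They lie in 4 clusters. On hg38, the HOXA cluster holds 11 genes at chr7:27092993-27200091, the HOXB cluster 10 genes at chr17:48528526-48728750, the HOXC cluster 9 genes at chr12:53938831-54056030 and the HOXD cluster 9 genes at chr2:176092721-176190907.

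HOX genes encode homeodomain transcription factors that give cells their position along the body axis. Their order along each cluster follows the order in which they are switched on from head to tail, and Polycomb proteins keep them silent where they are not used while Trithorax proteins keep them active. CTCF, a DNA-binding protein that stops the loop-extruding cohesin ring, divides the clusters into domains, and several HOXA and HOXB genes pattern the developing airway and lung.

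The series held 36 ChIP-seq samples in 18 groups of 2 replicates, 4 of them input chromatin, and the authors merged the replicates before peaks were called, so that each of the 16 lists is a single pool without replicate error and no test between the lines was possible. A549 is a lung adenocarcinoma cell line, and B2B is an immortalized, non-cancerous bronchial epithelial line. The labels name no treatment of these cells, and each line stands for itself and not for tumours or airways in general. In both lines the lists covered the promoter mark H3K4me3, RNA polymerase II (Pol II), the active mark H3K27ac, the Mediator subunit Med1 and the AP-1 proteins JunB, Jun and JunD. The lists of CTCF and the cohesin subunit Rad21 used here came from B2B only. The number of reads behind a list was not stated.

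Of the 16 lists, 4 stopped before the end of the genome. The A549 H3K27ac list ended on chromosome 13, both Med1 lists on chromosome 15 and the A549 Pol II list on chromosome 20. HOXB on chromosome 17 was therefore not covered for Med1 or for A549 H3K27ac, which left 29 members for those targets. The epithelial genes KRT8, KRT18, EPCAM and CDH1 carried H3K4me3 in both lines. So did the mesenchymal genes VIM, CDH2 and ZEB1, so that this mark did not set epithelial and mesenchymal genes apart. PTPRC, CD3E and PECAM1, which mark leukocytes and endothelium, carried it in neither line. CDKN2A, which is deleted in A549, had no peak in any A549 list and an H3K4me3 peak in B2B.

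A gene was called for a list when the list held a peak no more than 1 kb from an annotated start of the gene. The strength of a peak is given as its deposited fold enrichment over the local background. Fold enrichments are not comparable between lists, because the background differed. The estimated local background at peaks near start sites had a median of 35.96 reads in B2B against 3.51 in A549 for H3K4me3, of 26.96 against 2.48 for Pol II and of 23.9 against 2.34 for H3K27ac. For Med1 it was 2.14 in B2B and 1.99 in A549. The values of HOX genes are therefore given with a percentile, the share of peaks in the same list that the peak equals or exceeds, and a fold enrichment printed without one stands for its own list and is not compared between the lines. The part of the higher B2B background in the calls found in A549 only was not tested.

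The HOXA and HOXD clusters were marked in A549 and carried almost no marks in B2B, whereas HOXB and HOXC carried marks in both lines. H3K4me3 was called at 33 of 39 HOX genes in A549, or 84.6% (Wilson 95% interval 70.3 to 92.8), where 72% of all protein-coding genes were called. In B2B it was called at 14 of 39, or 35.9% (22.7 to 51.6), where 61.5% of all genes were called. These intervals and those below cover counting error only, and genes of a cluster share peaks, so that they are not independent. The A549 interval includes the share of all genes, and the B2B interval lies below it.

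Pol II, the enzyme that transcribes these genes, followed the same division except in HOXB. In B2B it was called at 1 of 10 HOXB genes and at 4 of 9 HOXC genes. B2B Pol II peaks covered 0.298% of HOXB, below the 0.799% of chromosome 17. Pol II was called at 27 of 39 HOX genes in A549 (67.6% of all genes) and at 5 of 39 in B2B (49.2% of all genes). H3K27ac was called at 24 of 29 in A549 (71.6% of all genes) and at 14 of 39 in B2B (63.2%). Med1, which links enhancer-bound factors to Pol II, was called at 11 of 29 in A549 (53.2%) and at 6 of 29 in B2B (59.5%). The Wilson 95% intervals of the HOX share included the share of all genes for Pol II (53.6 to 81.4%), H3K27ac (65.5 to 92.4%) and Med1 (22.7 to 55.998%) in A549, and lay below it for Pol II (5.60 to 26.7%), H3K27ac (22.7 to 51.6%) and Med1 (9.85 to 38.4%) in B2B.

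Where HOX genes had a peak, it was usually not among the strongest at gene starts. The median percentile for H3K4me3 was 64.9 over the HOX genes with a peak in A549 and 79.2 over all genes with one, and in B2B 38.5 and 56.9. For H3K27ac it was 75.7 against 84.0 in A549 and 54.1 against 69.5 in B2B. For Pol II the HOX median was the lower in A549, 76.1 against 86.9, and the higher in B2B, 53.4 against 46.8 with 5 HOX genes. These medians describe the lists and were not tested.

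Gene by gene, H3K4me3 was called in A549 only at 20 HOX genes (12.3% of all genes) and in B2B only at 1, HOXB4 (1.82% of all genes). Both lines had it at 13 genes, and neither at 5. Pol II was called in A549 only at 22 (19% of all genes) and in B2B only at 0 (1.66%). H3K27ac was called in A549 only at 18 of 29 (10.8% of all genes) and in B2B only at 1, HOXC12 (1.96%). Med1 differed from the other marks, with 10 of 29 genes in A549 only (3.68% of all genes) and 5 in B2B only (9.97%). The 5 were HOXC4, HOXC5, HOXC6, HOXC8 and HOXC13, all in one cluster.

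**Figure D1:**
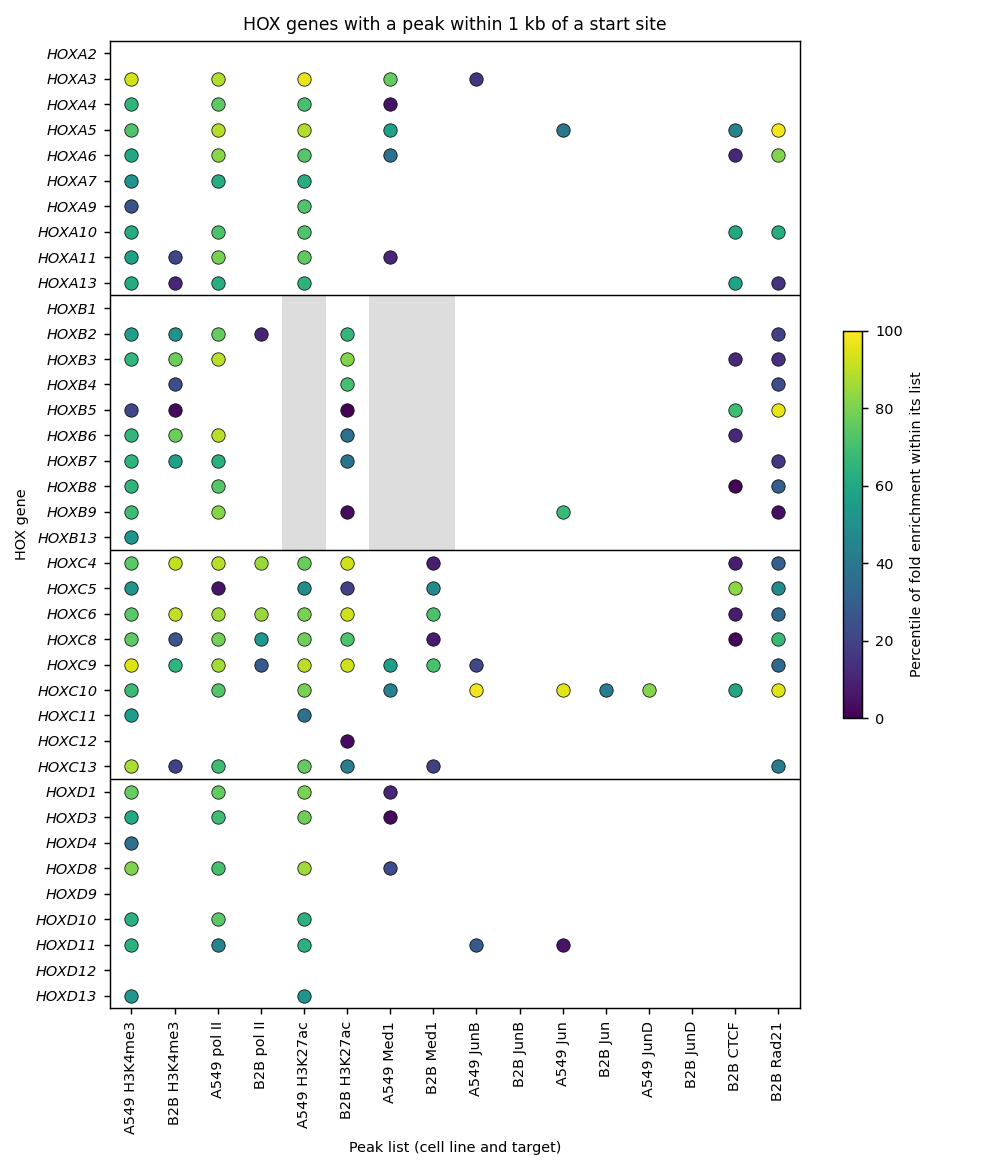
Each row is a HOX gene, with 1 member not drawn, and each column a peak list. A dot marks a peak within 1 kb of a start site, its colour gives the percentile of the fold enrichment within that list, and grey marks clusters that a list does not reach. In the HOXA and HOXD rows the A549 H3K4me3, Pol II and H3K27ac columns are mostly filled, while B2B, apart from CTCF and Rad21, has 2 H3K4me3 dots in HOXA and none in HOXD.

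In HOXA and HOXD together, a grouping chosen after their values were seen, 17 of 20 genes were called for H3K4me3 in A549 and 3 of 20 in B2B. Pol II was called at 14 in A549 and 0 in B2B, H3K27ac at 16 and 0, and Med1 at 9 and 0. The clusters themselves held 30 H3K4me3 peaks in A549 and 4 in B2B, 29 and 0 Pol II peaks, 36 and 0 H3K27ac peaks and 16 and 0 Med1 peaks. HOXB and HOXC together had H3K4me3 at 16 of 19 genes in A549 and at 11 of 19 in B2B, with 23 and 24 peaks.

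The length of marked chromatin showed the same order. H3K4me3 peaks covered 27.1% of HOXA in A549 and 1.19% in B2B, and 14.04% against 0.676% of HOXD. HOXB was covered over 10.99% in A549 and 4.62% in B2B, and HOXC over 16.2% and 9.26%. In every cluster the covered share was higher in A549. For comparison, H3K4me3 covered 1.34% of chromosome 7 in A549 and 0.622% in B2B, and 1.26% and 0.601% of chromosome 2, which carries HOXD. It covered 2.68% and 1.34% of chromosome 17, which carries HOXB, and 1.68% and 0.867% of chromosome 12, which carries HOXC. The share of each of these chromosomes was thus also higher in A549. Whether HOXB and HOXC differed between the lines by more than their chromosomes was not tested.

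H3K27ac, for which HOXB was not covered in A549, departed from this in HOXC. It covered 20.1% of HOXA and 8.95% of HOXD in A549 and 0 of either in B2B, but 12.01% of HOXC in A549 and 15.1% in B2B. The HOXC cluster held 14 H3K27ac peaks in A549 and 29 in B2B. In B2B, HOXC was thus the most heavily acetylated of the 4 clusters, and HOXB followed with 4.63%.

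**Figure D2:**
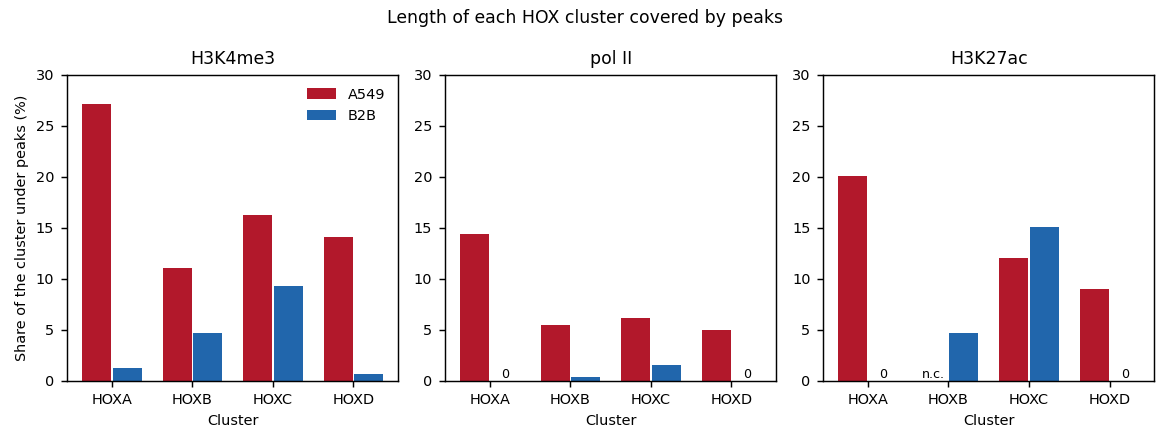
Bars give the percentage of each HOX cluster that lies under peaks of H3K4me3, Pol II or H3K27ac in A549 (red) and B2B (blue), each from one pooled list without error bars, and n.c. marks a cluster that the list does not reach. HOXA and HOXD show bars in A549 and bars at or near 0 in B2B, whereas HOXC H3K27ac is the pair in which the B2B bar is the higher.

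The HOXA cluster was marked from end to end in A549. H3K4me3 was called at 10 of 11 genes, the exception being HOXA2, which specifies the branchial arches. The strongest peak lay at HOXA3, a gene of pharyngeal development, at chr7:27110916-27114791, with a fold enrichment of 43.4 (93.1st percentile) and a width of 3876 bp, the widest of the cluster. At the same gene H3K27ac reached 100.9 (96.3rd percentile), Pol II 48.0 (88.2nd) and Med1 10.1 (75.8th), and no B2B list had a peak there. HOXA3 has 6 annotated start sites, and this peak lies at one inside the gene, far from its canonical start at 27152583.

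HOXA5, which is required for normal trachea and lung development, had 30.9 (72.4th) for H3K4me3, 50.2 (89.0th) for Pol II and 72.9 (88.4th) for H3K27ac. The posterior genes had lower H3K4me3 values than HOXA5. HOXA7 had 14.1 (51.5th) for H3K4me3, HOXA9, a regulator of blood stem cells, 5.18 (25.5th) with no Pol II peak, and HOXA10, which acts in the uterus, 22.8 (61.0th) at an upstream start. HOXA11 and HOXA13, genes of the distal limb and the genital tract, had 19.4 (57.1st) and 22.997 (61.3rd). HOXA4 had 25.9 (64.9th) and HOXA6 21.6 (59.6th). At their canonical starts HOXA6 and HOXA9 had no peak of any list, so that their values belong to other annotated starts. Pol II in A549 stood at 20.8 (75.3rd) at HOXA4, 32.5 (82.1st) at HOXA6, 9.64 (61.4th) at HOXA7, 16.5 (71.8th) at HOXA10, 27.4 (79.3rd) at HOXA11 and 9.81 (62.0th) at HOXA13.

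In B2B the HOXA cluster held 3 H3K4me3 peaks and no peak of Pol II, H3K27ac, Med1 or a Jun protein. They were weak, with 2.36 at HOXA11 (21.4th percentile) and 2.04 at HOXA13 (10.3rd), and all 3 overlapped an A549 peak. The HOXA11 and HOXA13 peaks also lay within 1 kb of a start of an opposite-strand RNA, HOXA11-AS and HOTTIP. In the B2B lists of CTCF and Rad21, 6 and 7 peaks lay in the cluster. The copy number of the cluster and its input coverage were not tested.

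HOXA2 and HOXA4 lie on either side of the strongest HOXA3 peak and are shown because one was marked in A549 only and the other in neither line. HOXA4 was called for H3K4me3, Pol II, H3K27ac and Med1 in A549 only, and HOXA2 for no list in either line. The 250 bases before their starts, from RefSeq on GRCh38.p14, are shown on the strand of the gene with each CpG in capitals; CpG-dense promoters are the usual substrate of H3K4me3. HOXA4 lies at chr7:27130758-27131007 and HOXA2 at chr7:27102684-27102933, both on the minus strand.
HOXA4: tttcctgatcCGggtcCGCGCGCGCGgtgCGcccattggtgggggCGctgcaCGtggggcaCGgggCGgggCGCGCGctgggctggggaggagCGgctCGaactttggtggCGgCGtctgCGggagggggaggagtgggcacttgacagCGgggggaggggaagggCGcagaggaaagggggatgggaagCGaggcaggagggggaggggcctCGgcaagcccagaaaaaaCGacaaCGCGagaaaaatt
HOXA2: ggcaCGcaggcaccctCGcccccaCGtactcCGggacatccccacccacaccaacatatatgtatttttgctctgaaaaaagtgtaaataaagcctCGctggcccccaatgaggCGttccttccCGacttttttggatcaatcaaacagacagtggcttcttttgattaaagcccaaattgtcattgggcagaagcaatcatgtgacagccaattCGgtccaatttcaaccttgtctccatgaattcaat
The HOXA4 stretch holds 26 CpGs and the HOXA2 stretch 8.

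Over all 39 members, windows from 250 bases before to 50 after the canonical start held a median of 18 CpGs, with a range of 4 to 44, against 23 over all protein-coding genes. The 20 genes with H3K4me3 in A549 only had a median of 24, the 13 with it in both lines 14 and the 5 with it in neither 13. These groups count a peak at any annotated start, whereas the CpGs are those of the canonical start. HOXA3, HOXA6, HOXA9 and HOXB3 had no H3K4me3 peak within 1 kb of the canonical start in either line. On this count, CpG number did not order the genes by the number of lines that marked them. HOXC6, marked in both lines, had 4 CpGs at its canonical start, and HOXD9, marked in neither, had 28.

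The HOXD cluster, whose posterior genes build the limb, was also marked in A549 and almost bare in B2B. H3K4me3 was called at 7 of 9 genes in A549 and at 0 of 9 in B2B. HOXD8 had the highest fold enrichment, 35.9 (81.1st percentile), followed by HOXD1 with 32.9 (75.8th) and by a peak near HOXD11 and one HOXD10 start with 25.1 (63.9th). HOXD3 had 22.3 (60.4th), HOXD13, which shapes the digits, 15.2 (52.9th), and HOXD4 6.65 (35.97th). Pol II was called at HOXD1 with 21.9 (76.1st), HOXD10 with 19.5 (74.3rd), HOXD8 with 15.3 (70.5th), HOXD3 with 14.3 (69.5th) and HOXD11 with 6.23 (45.3rd), and not at HOXD4 or HOXD13. The HOXD3 values belong to another annotated start. At its canonical start HOXD3 had H3K4me3 at 3.99 (9.35th) in A549 and no Pol II or H3K27ac peak. HOXD9 and HOXD12 were called for none of the 16 lists.

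Apart from CTCF and Rad21, the only B2B peak in HOXD was an H3K4me3 peak of 4.85 (74.1st percentile) at chr2:176096769-176097432, between HOXD13 and HOXD12 and away from any HOX start. It overlapped an A549 H3K4me3 peak. The strongest H3K27ac peak of the cluster in A549, 72.2 (88.1st percentile) at chr2:176140342-176141116, lay in an intron of HOXD3 more than 1 kb from any HOX start, and a B2B CTCF and a B2B Rad21 peak lay on the same segment. B2B had no H3K27ac peak there.

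**Figure D3:**
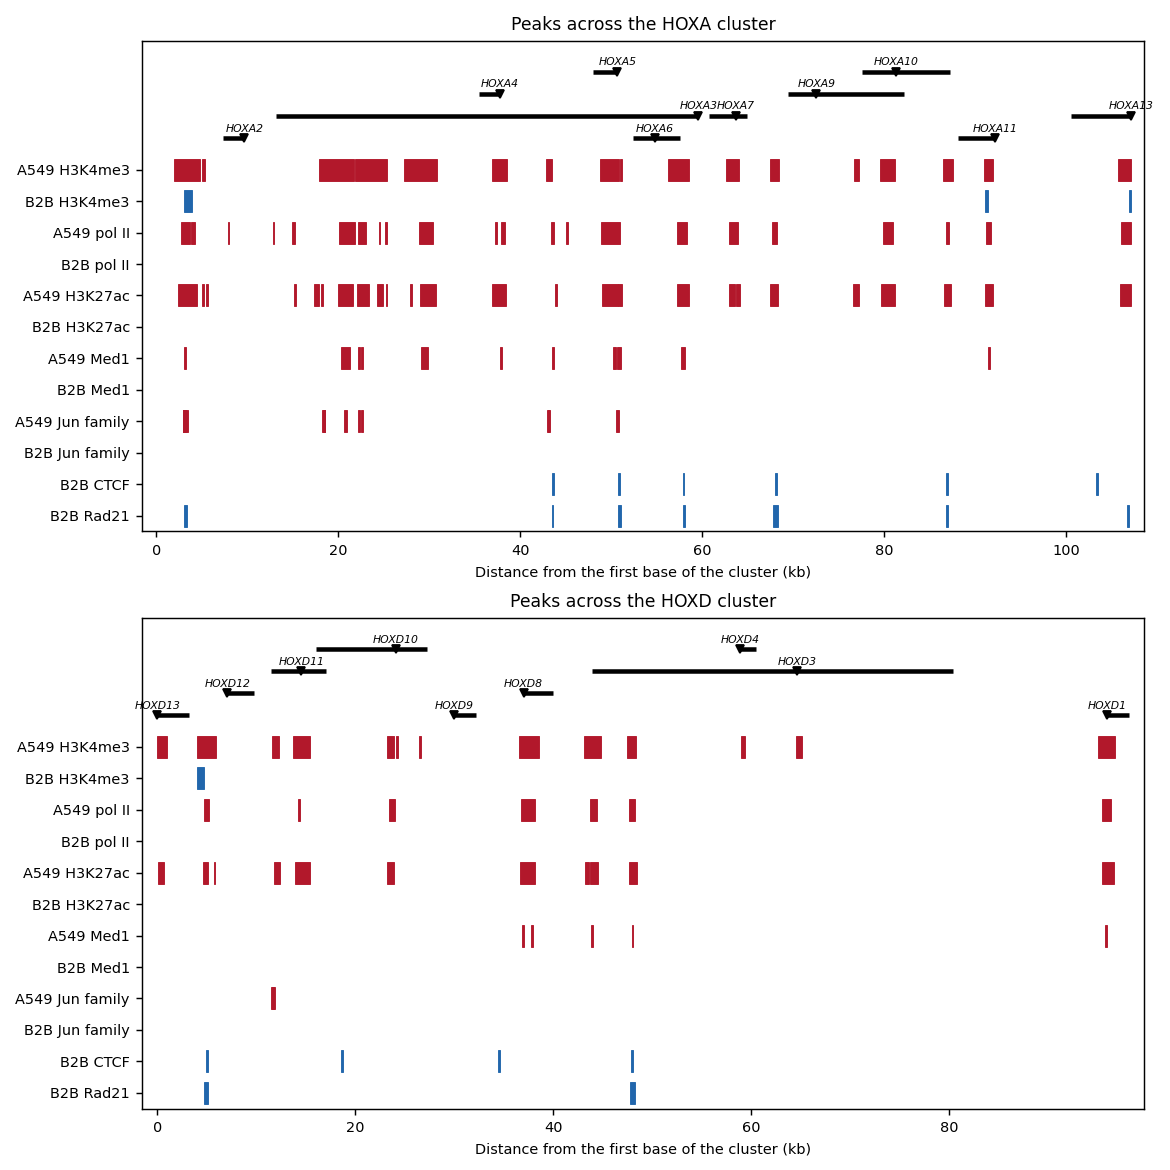
Blocks are peaks along the HOXA and HOXD clusters, with distance in kb from the first base of the cluster on the x axis, A549 lists in red and B2B lists in blue, and the Jun family given as JunB, Jun and JunD together; black bars are genes, with 1 HOXA member not drawn, and triangles their canonical starts. The rows of B2B Pol II, H3K27ac, Med1 and Jun family are empty in both clusters, while B2B CTCF and Rad21 are present.

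The HOXB cluster was marked in both lines, with sets of genes that overlapped in large part. H3K4me3 was called at 8 of 10 genes in A549 and at 6 of 10 in B2B, and 5 were shared: HOXB2, HOXB3, HOXB5, HOXB6 and HOXB7. HOXB9, a posterior gene of the trunk, had the highest A549 value, 28.6 (68.7th percentile), with Pol II at 32.4 (82.0th) and no H3K4me3 or Pol II peak in B2B. HOXB8 and HOXB13, the latter a prostate regulator, were also called for H3K4me3 in A549 only, at 25.99 (65.1st) and 15.01 (52.6th). HOXB8 and HOXB7 shared a single A549 peak, which ran over 5535 bp. Pol II in A549 only was 18.3 (73.3rd) at HOXB8 and 10.5 (63.5th) at HOXB7.

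With all annotated starts counted, HOXB4, which promotes the renewal of blood stem cells, was the one HOX gene with H3K4me3 in B2B only. Its peak at chr17:48576985-48579164 had a fold enrichment of 2.399 (22.7th percentile), and H3K27ac was 7.03 (70.2nd) in B2B. No Pol II peak was called there in either line. No A549 list that reached the cluster had a peak within 1 kb of the HOXB4 start.

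The strongest B2B H3K4me3 peak at HOXB start sites was shared by HOXB6 and one start of HOXB3, with 5.13 (77.5th percentile). The same place had 26.3 (65.5th) for H3K4me3 and 51.2 (89.3rd) for Pol II in A549, and no Pol II peak in B2B. HOXB2, a hindbrain gene, was the one HOXB gene with Pol II in B2B, at 2.66 (10.1st percentile) beside 22.1 (76.2nd) in A549. At its canonical start alone, HOXB2 had H3K4me3 at 3.46 (50.8th) and this Pol II peak in B2B, and neither mark in A549. HOXB5 was weak in both lines, with 4.79 (21.2nd) in A549 and 1.75 (2.64th) in B2B. HOXB1, the most anterior gene, had no peak of any of the 13 lists that reached it.

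The HOXC cluster was marked in both lines. H3K4me3 was called at 8 of 9 genes in A549 and 5 of 9 in B2B, and the 5 were all among the 8: HOXC4, HOXC6, HOXC8, HOXC9 and HOXC13. HOXC9, of the trunk and its motor neurons, had the highest A549 value of all HOX genes, 45.0 (94.9th percentile), with H3K27ac at 75.8 (89.5th), and 4.23 (65.2nd) and 11.3 (93.0th) in B2B. The highest B2B value of all HOX genes, 7.604 (91.0th percentile), lay at chr12:54016382-54018483, at starts that HOXC4 and HOXC6 share, where A549 had 31.9 (74.2nd).

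Pol II was called in B2B at HOXC4, HOXC6, HOXC8 and HOXC9. The HOXC4 and HOXC6 peak had 8.63 (84.7th percentile) in B2B and the nearby A549 peak at HOXC4 50.4 (89.1st). HOXC8 had 5.06 (53.4th) in B2B and 25.9 (78.5th) in A549, and HOXC9 3.68 (28.1st) and 42.3 (86.1st). Med1 in B2B was strongest at HOXC6 and HOXC9, which shared a peak of 8.34 (71.2nd), and stood at 6.14 (47.9th) at HOXC5. These genes were counted through several start sites, and with canonical starts alone 2 HOX genes kept a B2B Pol II call, HOXB2 and HOXC8.

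HOXC5, HOXC10 and HOXC11 had H3K4me3 in A549 only, at 14.7 (52.3rd percentile), 27.8 (67.6th) and 17.5 (55.3rd). HOXC10 and HOXC13 had Pol II in A549 only, at 18.4 (73.4th) and 13.96 (69.0th), as had HOXC5 at 3.67 (4.70th). HOXC13, a regulator of hair and nail keratins, had H3K4me3 at 39.4 (87.2nd) in A549 and 2.30 (19.1st) in B2B. HOXC12 had no H3K4me3 or Pol II in either line, and its B2B H3K27ac peak was among the weakest of the list, at 2.48 (2.999th percentile).

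Between HOXC12 and HOXC11, B2B carried marks inside HOTAIR, a long non-coding RNA that recruits Polycomb complexes, on a stretch where A549 had no H3K4me3. In B2B, H3K4me3 was 4.63 there at chr12:53965824-53967642, Pol II 8.47 and H3K27ac up to 7.79. In A549, H3K4me3 lay instead at the outermost HOTAIR start beside HOXC11, at chr12:53973594-53975041, with 17.5. Within 1 kb of a HOTAIR start A549 also had Pol II at 9.52 and H3K27ac at up to 17.3, so that HOTAIR was marked in both lines. The B2B Jun peak of highest fold enrichment in the clusters, 11.1 (63.4th percentile), lay at the edge of the B2B H3K4me3 peak, together with a CTCF peak of 9.18.

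**Figure D4:**
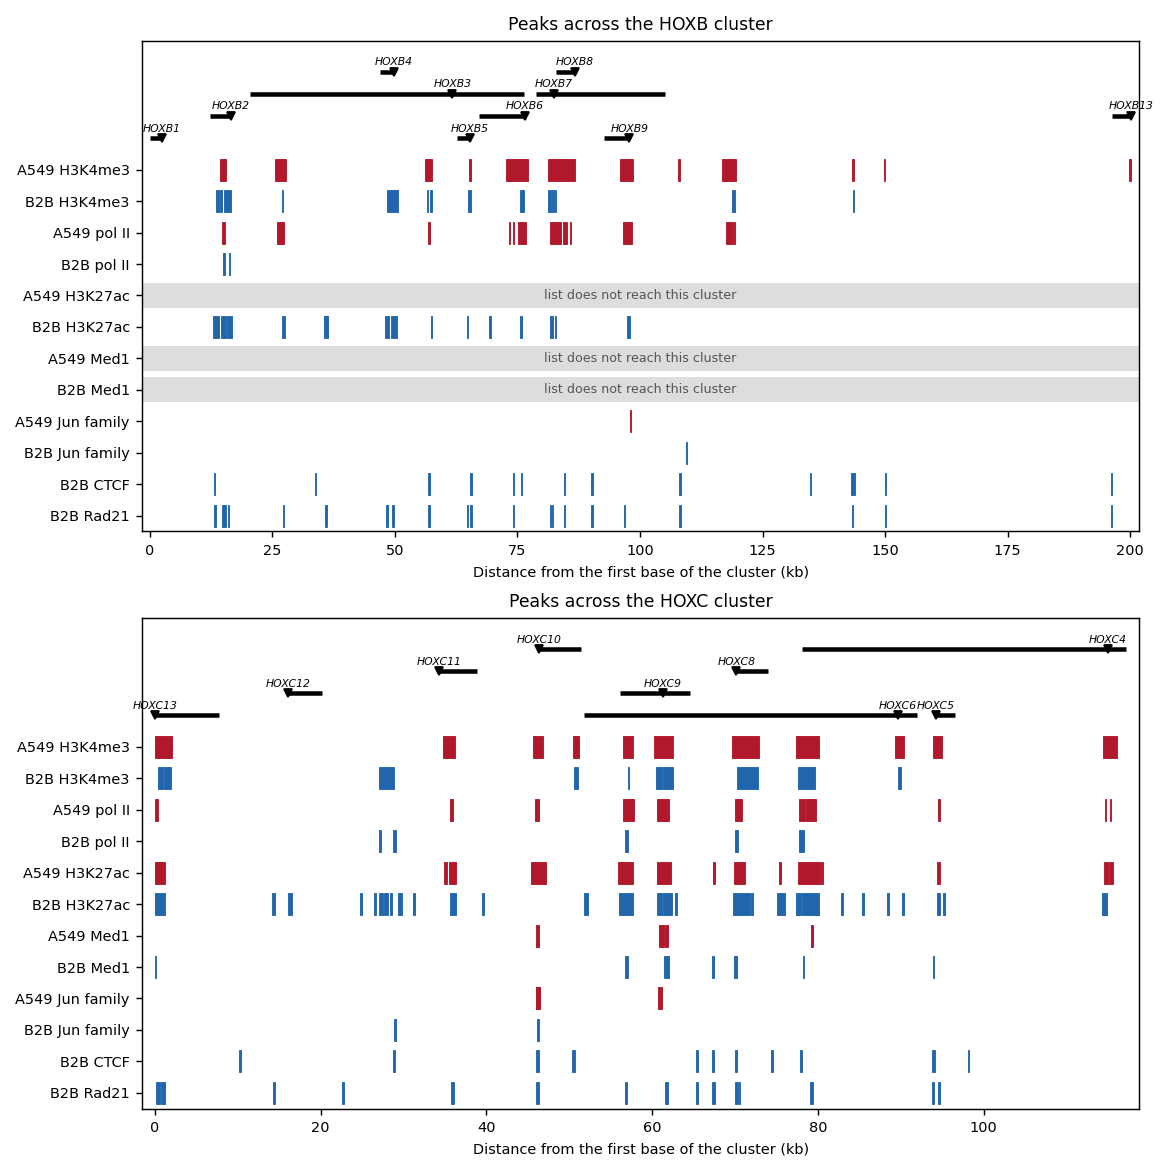
Blocks are peaks along the HOXB and HOXC clusters, drawn as in the map of HOXA and HOXD, with A549 lists in red, B2B lists in blue and grey bands for lists that do not reach HOXB. Both lines have H3K4me3 in both clusters, and B2B has 29 H3K27ac peaks in HOXC against 14 in A549.

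By paralogue group, the genes of like number in different clusters, A549 had H3K4me3 at 3 of 3 genes of groups 3, 5, 6, 8, 10 and 11, at 2 of 2 of group 7 and at 4 of 4 of group 13. Over all HOX genes the share was 84.6% in A549 and 35.9% in B2B, and the groups were not tested. HOXA3, HOXB3 and HOXA6 had no A549 H3K4me3 at their canonical starts, where groups 3 and 6 were thus not complete. Group 12 had 0 of 2 in either line. In B2B no group was complete, group 10 had 0 of 3, and group 6 had 2 of 3. The B2B calls of Pol II and H3K27ac lay in HOXB and HOXC alone.

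AP-1 binding was examined because AP-1 is the factor of the study. JunB was called at 5 of 39 HOX genes in A549 (26.3% of all genes) and at 0 of 39 in B2B (3.02%; a Wilson 95% interval for 0 of 39 reaches 8.97%). Jun was called at 5 in A549 (31.9% of all genes) and at 1 in B2B (16.5%), and JunD at 2 in A549 (15.8%) and 0 in B2B (1.75%). For Jun the Wilson 95% intervals of the HOX share, 5.60 to 26.7% in A549 and 0.454 to 13.2% in B2B, lay below the share of all genes. For JunB and JunD they included it in both lines, so that a difference was not detectable with 39 genes. Any Jun-family peak was found in A549 only at 6 HOX genes (24.9% of all genes), in B2B only at 0 (3.71%), and in both lines at 1, HOXC10.

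HOXC10, a posterior gene of limb and spinal cord identity, carried the strongest AP-1 binding of the clusters. In A549 the Jun peak at its start had a fold enrichment of 39.6 (95.6th percentile), JunB 27.5 (97.8th) and JunD 7.83 (81.5th), and the 3 summits lay within 30 bp of a HOXC10 start. In B2B the Jun peak had 7.73 (42.2nd), and JunB and JunD had none. This B2B Jun peak had an estimated pileup of 84 reads over a local background of 9.99. The median background was 2.71 at B2B Jun peaks near start sites and 1.68 at the 5 A549 Jun peaks of HOX starts. The lower fold enrichment in B2B is therefore no measure of less Jun binding, which was not tested. In bulk samples, binding in fewer cells and weaker binding in each cannot be told apart. The site sits in an exon of the antisense RNA HOXC-AS3.

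The chromatin around this site differed between the lines. A549 had H3K4me3, Pol II, H3K27ac and Med1 at HOXC10, with Med1 at 6.38 (44.1st percentile). B2B had none of these, and had a CTCF peak of 10.9 (58.9th) and a Rad21 peak of 20.5 (95.2nd) on the same bases. The lists used here held no CTCF or Rad21 of A549, although the paper reports both proteins in that line. HOXC10 was thus the one HOX start with Jun in both lines and with active marks in only one.

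The other Jun-family peaks at HOX starts were weaker. HOXB9 had Jun at 13.2 (67.3rd) and HOXA5 Jun at 7.97 (39.4th). HOXA3, HOXC9 and HOXD11 had JunB at 4.84 (15.6th), 5.13 (21.4th) and 5.45 (28.0th), and HOXD11 also Jun at 4.86 (5.25th). With A549 lists shortened to the length of the B2B lists, 1 HOX gene kept JunB and 1 kept JunD.

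Across the whole clusters the Jun-family peaks merged into 11 regions in A549 and 3 in B2B. HOXA held 7 of the A549 regions, HOXB 1, HOXC 2 and HOXD 1. All 18 A549 peaks overlapped A549 H3K4me3, whereas over the lists 32.9% of JunB, 30.5% of Jun and 49.1% of JunD peaks did. In B2B 1 of 3 Jun peaks overlapped H3K4me3, against 7.50% of that list. Of the 18 A549 peaks, 5 held the motif TGANTCA within 50 bp of the summit on either strand, and they came from 2 sites. The share over the whole A549 lists was 52.9% for JunB, 50.3% for Jun and 39.0% for JunD, and 2.95 to 3.20% of windows 2 kb away held the motif. Several of these peaks share a site, and the difference was not tested.

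Apart from HOXC10, the motif was found at one site in an intron of HOXA3, bound by JunB and Jun in A549 alone, and at one in an intron of LINC03057 between HOXB9 and HOXB13, bound by Jun in B2B alone. They are shown on the plus strand with the motif in capitals, because each was bound in a single line. The HOXA3 site is at chr7:27111396-27111432 and the LINC03057 site at chr17:48637985-48638021.
HOXA3 intron: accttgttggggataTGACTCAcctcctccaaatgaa
LINC03057 intron: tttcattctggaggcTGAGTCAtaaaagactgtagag
At the HOXA3 site JunB had 8.59 (66.7th percentile) and Jun 7.18 (32.6th) in A549. At the LINC03057 site Jun had 7.51 (40.8th) in B2B with no H3K4me3 peak of that line over it.

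CTCF and Rad21 were present in all 4 clusters in B2B, including HOXA and HOXD, which held no Pol II, H3K27ac or Med1 peak in that line. CTCF was called at 13 of 39 HOX starts (38% of all genes) and Rad21 at 19 of 39 (64.4%). HOXD had 0 of 9 for each, and HOXA had 4 and 5 of 11. With canonical starts alone, CTCF was called at 6 HOX genes. Within the clusters there were 34 CTCF peaks, of which 22 overlapped a Rad21 peak, where 36.3% of the whole CTCF list did. Of 44 Rad21 peaks, 22 overlapped CTCF, where 57.0% of the whole list did.

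The pairing was counted in each cluster. In HOXA 5 of 6 CTCF peaks and 5 of 7 Rad21 peaks were paired, and in HOXD 2 of 4 and 2 of 2. In HOXB 10 of 13 CTCF peaks overlapped Rad21 but 10 of 20 Rad21 peaks lacked CTCF, and in HOXC 5 of 11 and 10 of 15. HOXB and HOXC held 20 of the 22 unpaired Rad21 peaks and 35 of all 44, and the difference between clusters was not tested.

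**Figure D5:**
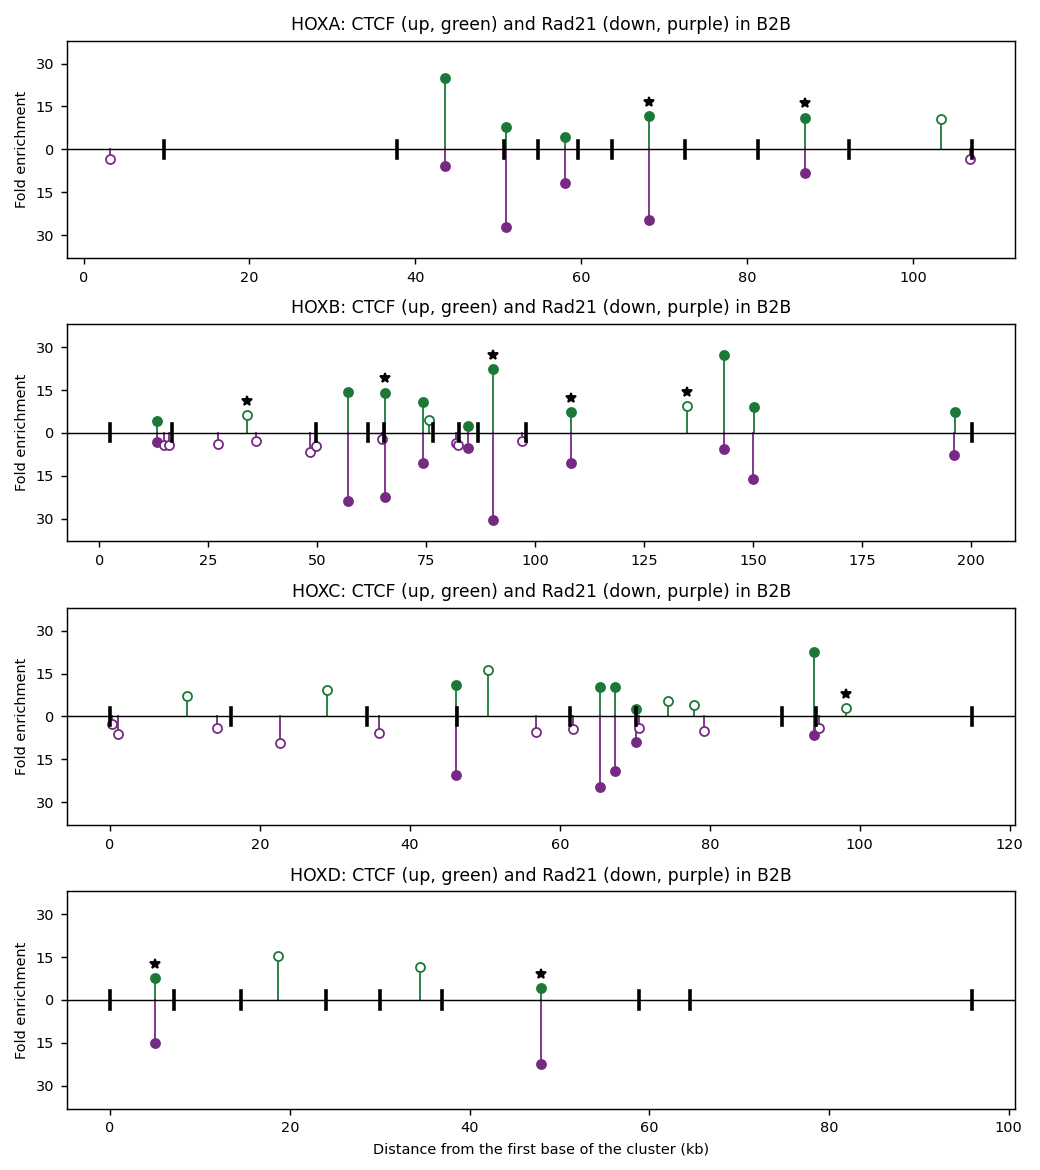
Stems give the fold enrichment of CTCF (green, upwards) and Rad21 (purple, downwards) peaks in B2B by distance in kb from the first base of each cluster, with the scale positive in both directions; filled heads overlap a peak of the other protein, stars mark a CTCF core motif and black ticks are canonical HOX starts, with 1 HOXA member not drawn. HOXD has 4 CTCF and 2 Rad21 peaks, and HOXB has 13 and 20.

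In HOXA the paired sites stood in the middle and posterior parts of the cluster, from the stretch between HOXA4 and HOXA5 to HOXA10. CTCF was strongest between HOXA4 and HOXA5, at 25.02 (85.7th percentile), with Rad21 at 5.90. At HOXA5 CTCF had 7.93 (43.9th) and Rad21 27.3 (98.1st), and between HOXA7 and HOXA9 they had 11.6 (61.6th) and 24.6 (97.2nd). The part of the cluster before HOXA4 held no CTCF peak. Of the 6 CTCF peaks, 5 lay on segments that carried H3K4me3 and Pol II in A549 and 0 on segments with H3K4me3 in B2B. Over all 4 clusters, 20 of 34 CTCF peaks lay on H3K4me3 of A549 and 7 of 34 on that of B2B. H3K4me3 covered 27.1% of HOXA in A549 and 1.19% in B2B. Whether the overlap exceeded this coverage was not tested, and the share over the whole CTCF list was not counted.

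In HOXB the highest Rad21 value, 30.5 (98.8th percentile), lay between HOXB8 and HOXB9 with CTCF at 22.3 (82.7th), inside an intron of the longest HOXB7 transcript. HOXB5 had CTCF at 14.1 (68.5th) and Rad21 at 22.5 (96.3rd) at its start. In HOXC, CTCF was strongest just before HOXC5, at 22.6 (82.9th), and Rad21 between HOXC9 and HOXC8, at 24.7 (97.2nd). In HOXD, the paired sites were between HOXD13 and HOXD12, with CTCF at 7.61 and Rad21 at 15.1, and in the HOXD3 intron, with 4.05 and 22.4. CTCF was thus weak at the HOXD3 site, where Rad21 stood at the 96.2nd percentile.

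A core of the CTCF motif, CCNNNAGNNGGC on either strand within 50 bp of the summit, was found at 10 of 34 CTCF peaks, against 24.8% of the whole list and 1.07% of windows 2 kb away. It lay on the plus strand at 4 and on the minus strand at 6. The 4 sites below are those with both motif and Rad21 in HOXA between genes, at the strongest Rad21 peak, and in HOXD; each is written on the strand of its motif, with the core in capitals. Their positions are chr7:27161126-27161161 (minus), chr17:48618734-48618769 (minus), chr2:176097747-176097782 (minus) and chr2:176140633-176140668 (plus).
HOXA7 to HOXA9: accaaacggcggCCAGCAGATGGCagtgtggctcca
HOXB8 to HOXB9: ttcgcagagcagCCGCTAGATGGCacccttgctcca
HOXD13 to HOXD12: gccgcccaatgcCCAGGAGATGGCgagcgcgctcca
HOXD3 intron: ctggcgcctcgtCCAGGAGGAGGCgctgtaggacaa
In HOXA both motif sites were on the minus strand, and in HOXD the 2 sites were on opposite strands. A peak without these letters may hold another form of the motif.

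The starts of many non-coding genes of the clusters lie so near a HOX start that the same peak was counted for both. Within the clusters and 20 kb beyond them, 19 of 31 long non-coding RNA genes had H3K4me3 at a start in A549 (28.3% of all such genes) and 11 of 31 in B2B (21.3%). HOXA-AS2 (43.4), HOXA-AS3 (25.9), HOXD-AS2 (22.3) and HAGLR (32.9) had H3K4me3 in A549 only. HOXC-AS1 had 45.0 in A549 and 4.23 in B2B, and HOTTIP, which recruits the MLL complex to posterior HOXA genes, had 22.997 and 2.04. HOXC-AS3, opposite HOXC10, had 27.8 in A549 and no H3K4me3 in B2B. These are the peaks already given for HOXA3, HOXA4, HOXD3, HOXD1, HOXC9, HOXA13 and HOXC10, and they are no separate observation.

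Of 8 microRNA genes in the clusters, 3 had H3K4me3 within 1 kb of the hairpin's first base in A549 (16.7% of all microRNA genes) and 1 in B2B (11.7%), although a hairpin's first base is not the start of its primary transcript. MIR196B, between HOXA9 and HOXA10, had 5.18 in A549 only. MIR10A, beside HOXB4, had 2.399 in B2B only, which is the HOXB4 peak. MIR196A2, in HOXC, had H3K27ac at 3.65 in B2B and no H3K4me3 in either line. The mature RNAs of these loci are shown with the seed, bases 2 to 8, in capitals, because the MIR196 products target HOX messages and share their seed across clusters.
hsa-miR-196b-5p: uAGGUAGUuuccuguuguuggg
hsa-miR-196a-5p: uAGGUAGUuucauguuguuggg
hsa-miR-10a-5p: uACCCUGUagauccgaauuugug
The MIR196 products of HOXA and HOXC thus share a seed, which miR-10a does not.

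Genes just outside the clusters were called in both lines in most cases, but not in all. Within 200 kb of HOXD, LNPK and MTX2, which are broadly expressed, had H3K4me3 in both lines, at 49.7 and 43.3 in A549 and 3.76 and 3.67 in B2B. MTX2 also had Pol II at 62.6 and Med1 at 8.05 in A549 and neither in B2B. SMUG1 beside HOXC had H3K4me3 at 38.9 and 9.11 and Pol II at 16.2 in A549 only, and CALCOCO2, ATP5MC1 and UBE2Z beside HOXB had H3K4me3 in both lines. TTLL6 beside HOXB had H3K4me3 at 20.6 and Pol II at 8.98 in A549 only, and SKAP1 on the other side had H3K4me3 at 6.21 in B2B only. EVX1, a homeobox gene linked to HOXA, had H3K4me3 at 8.21 in A549 only, and EVX2, linked to HOXD, had no peak of any list. In all, 8 of 10 neighbouring genes had H3K4me3 in A549 (72% of all genes) and 7 of 10 in B2B (61.5%).

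Genes that act with or on HOX genes were counted in the same way, beside 72% of all protein-coding genes with H3K4me3 in A549 and 61.5% in B2B. The HOX cofactors of the PBX, MEIS and PKNOX families had H3K4me3 at 9 of 9 genes in A549 and 8 of 9 in B2B, with PKNOX2 the exception. MEIS1, which binds DNA beside HOX proteins, had 39.5 in A549 and 7.17 in B2B for H3K4me3, and 76.6 and 30.2 for Pol II. Polycomb genes had it at 13 of 13 and 12 of 13, with CBX2 missing in B2B, and Trithorax and demethylase genes at 9 of 9 in each line. Upstream regulators were called at 7 of 9 in A549 and 4 of 9 in B2B. H3K4me3 was found in A549 only at 3 of them (12.3% of all genes), and these few genes were not tested. They were CDX2, a direct activator of HOX genes in the gut, ALDH1A2, which makes retinoic acid, and CYP26A1, which breaks it down. ALDH1A2 was not bare in B2B, where Pol II stood at 11.01, H3K27ac at 7.598 and Jun at 33.5 at its start.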

How the data were processed

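ChIP-seq peak lists of 7 targets in A549 and B2B and of CTCF and Rad21 in B2B were used, each a pool of 2 replicates. According to the submitters' processing notes and the study's methods, reads were mapped by the authors to hg38 with Bowtie2 2.4.4, alignments handled with SAMtools 1.13, duplicates removed, replicates merged and peaks called with MACS2 2.2.7.1. The control and options given to the caller are not given in the sources used here. The deposited score of a peak was 10 times its −log10 q. The deposited fold enrichment was a ratio of summit pileup to local background. The authors deposited p- and q-values as −log10, and the lowest −log10 q was just above 2. No file gave reads per sample, so that depth is unknown. Peak files held 0 columns of other samples.

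Genes came from GENCODE 44 and promoters and microRNAs from RefSeq, whose promoter table matched 20 of 39 members. Overlaps, with a minimum of 1 bp, were computed in Python 3.11.15 with NumPy 2.4.6, intervals with SciPy 1.17.1, sequences with pysam 0.24.0 and samtools 1.23.1, and plots with Matplotlib 3.10.9. Pileup and background were solved from fold enrichment and p-value under the Poisson model of MACS2, with 1 added to both, and are estimates. Overlap and solving functions were tested on simulated data. Groups followed the labels, and the alternatives tried are given at the end. The members, gene lists and comparisons were chosen with earlier results of these data known. Named with values are members called for H3K4me3 or Pol II in one line only, the strongest H3K4me3 member of each cluster and line, members with a Jun-family peak, members with no peak, and genes of the fixed lists and of the clusters' surroundings; other HOX genes are given for context. Values of 1 member and 1 site sequence are not reported here.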

Additional observations from a re-analysis of the deposited data

How the results depend on the processing

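Of 153 alternative values for 37 results, 139 stayed within 1.5 times the value reported and 14 moved. Only the 35 differences between the lines could reverse, and 0 did. Counts that stayed at 0, as for JunB and JunD in B2B, are among the 139. The alternatives were start distances of 0.5 and 3 kb, a −log10 q of at least 5, lists of equal length, canonical starts, other overlap rules, 20 kb of flank and other motif windows. All 35 alternative differences between A549 and B2B kept their sign. The difference in HOX genes with H3K4me3 was 19 and ranged from 16 to 20, and that for Pol II was 22 and ranged from 19 to 26. With canonical starts alone, HOX genes with B2B Pol II fell to 2, with A549 JunB to 3 and with CTCF to 6, by fewer start sites. With lists of equal length, A549 JunB fell to 1 and A549 JunD to 1, and B2B H3K27ac to 7, since that setting counts the 29 members on chromosomes covered in both lines. At a −log10 q of at least 5, A549 JunD fell to 1. The difference between the lines fell for Med1 from 5 genes to 3 under the stricter q, for JunB from 5 to 1 with lists of equal length and to 3 with canonical starts, and for JunD from 2 to 1 under the stricter q and with lists of equal length. With 20 kb of flank, B2B Jun-family regions rose to 5, and with a 25 bp window B2B peaks with TGANTCA fell to 1. No paired analysis was possible because the authors merged the replicates before calling peaks, and for the same reason no replicate could be left out. A peak absent from a list may lie below the caller's threshold, and reads per list are not known.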
